A study of Mus musculus with 23 samples.

Results

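Colon RNA from mice 6 days into treatment with dextran sulfate sodium (DSS) was compared with colon RNA from mice 2 days into it. The comparison uses 12 of the 23 arrays of the study, chosen by the day in their labels: 6 arrays of day 2 (mice 1, 6, 7, 8, 17 and 52) and 6 arrays of day 6 (mice 1, 3, 4, 7, 21 and 29). All mice were C57BL/6J, a common inbred laboratory strain, and were 12 to 14 weeks old. Both groups had DSS at 3% in their drinking water, so the comparison holds the agent constant and asks what changed between the 2nd and the 6th day of exposure. The 5 untreated arrays (day 0) and the 6 arrays of day 4 enter no difference between days 2 and 6. They are used for the shared estimate of spread and as values set beside it. Each day is a separate cohort of animals with 1 array each, and the labels name no part of the colon.

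DSS is a sulfated polysaccharide that injures the lining of the colon, and bacteria of the lumen then reach the tissue beneath. Epithelial cells, macrophages and fibroblasts respond with chemokines, which draw neutrophils and monocytes out of the blood, and with cytokines of the IL-1, IL-6 and TNF families. Enzymes that cut the extracellular matrix are made in the injured tissue, while the absorptive and secretory work of the epithelium can decline. The values are array signals of whole colon. In such RNA, fewer cells of a type and less RNA per cell cannot be told apart, nor can more cells and more RNA per cell.

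Between day 2 and day 6, 3862 of 12463 genes passed the test (31%, at an adjusted p of 0.05 or less by limma with Benjamini-Hochberg adjustment). At an unadjusted p under 0.05 there were 5093 (40.9%). Of the 3862, 2090 were higher at day 6 (16.8% of genes tested) and 1772 were lower (14.2%). Centring each array on its median instead of using the deposited scale turned this split to 1426 higher and 2369 lower. Changes of at least 2-fold were fewer and lay mostly on the higher side, with 403 genes higher (3.23%) and 107 lower (0.859%). For 925 genes (7.42%) all 6 arrays of day 6 lay above all 6 of day 2, and for 600 genes (4.81%) all lay below. Over all genes tested the median log2 change was 0.02, and the 5th and 95th percentiles were -0.51 and 0.86. Fold changes here are differences of mean log2(signal + 16), which understates the change of dim genes. The filter on dim genes kept 280 genes only because of their day 6 arrays. Of these, 117 were called higher and 0 lower. Among the 15 largest rises, Cxcl2, Il6, Chil3, Hp, Cxcl5, Ptx3 and Acod1 are of this kind. So are Cxcl3, Il11, Tnf, Csf3, Clec4e, Clec4d, Hdc, Cemip, Itgb7 and Krt16 among other genes given below. The filter favoured a rise in all of them. Lists with 3 or more such members are therefore also given without the filter. Without it, 11.6% of 18193 genes were higher and 9.05% lower, with a median log2 change of 0.03.

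All 12 arrays carried markers of colon epithelium, with signals of Epcam from 17500 to 21890 and of the goblet cell mucin Muc2 from 26380 to 30850. Arrays also carried RNA of tissue next to the colon, unevenly. Pancreatic RNA was marked by Prss2, a trypsin, and Clps, a lipase cofactor, which were picked with their values in view. Prss2 stood at 28000 on day 2 mouse 6 and at 9692 on day 6 mouse 1, and Clps at 25970 and 4606. On the other 10 arrays Prss2 stood at 462 or lower and Clps at 1150 or lower. The squamous keratin gene Krt10, also chosen after its values were seen, had a signal of 306 on day 2 mouse 8, against 3301 to 7102 on the other arrays of day 2 and 7235 to 16710 at day 6. Without these 3 arrays, 1871 genes were higher and 1528 lower. The hybridization controls, foreign transcripts added at a fixed amount, were dimmer at day 6, with a mean log2 level of 11.12 ± 0.19 against 11.56 ± 0.12 at day 2 (SD, n = 6 each). The difference of -0.45 had an adjusted p of 0.00866 over 4 measures (exact two-sided permutation test, for which the smallest p is 0.00216). The Gapdh ratio of 3' to 5' probe sets, a sign of RNA quality, was 0.10 higher on the log2 scale at day 6, with the same adjusted p from the exact test. With the level of the hybridization controls as a covariate, 663 genes were higher and 622 lower. The controls differ between the days themselves, so in this fit the covariate and the day can be told apart only in part. Its counts are given beside the lists below as "with the control covariate".

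**Figure D1:**
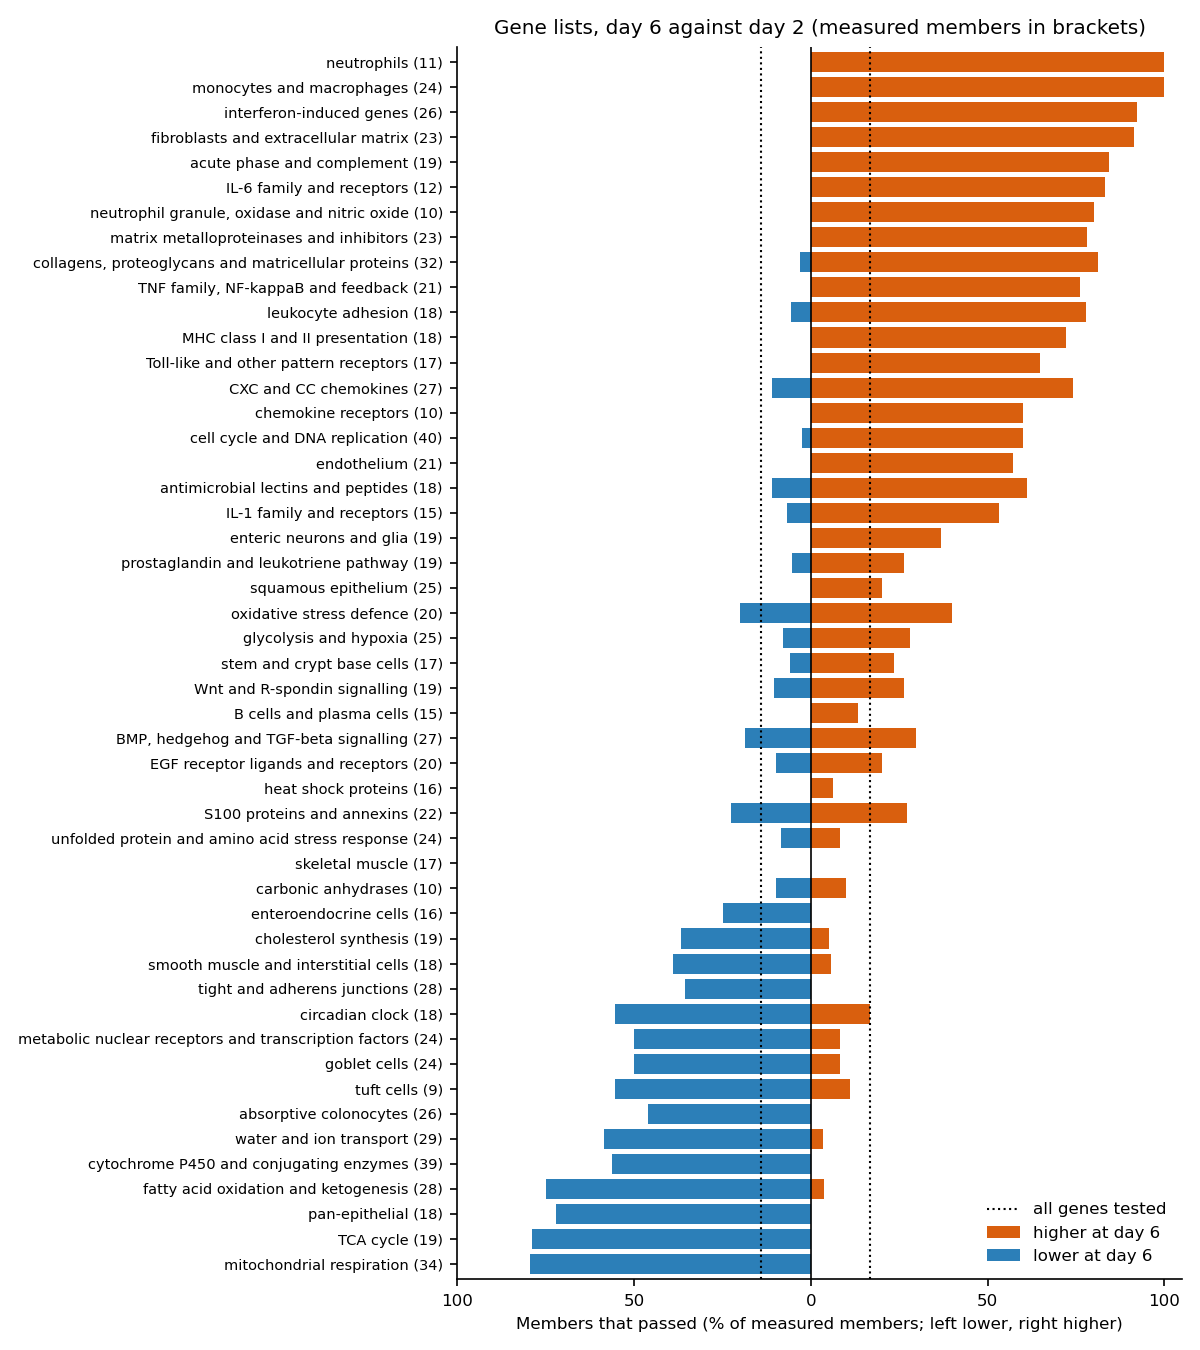
Share of the measured members of each gene list that passed the test between day 2 and day 6, in percent, higher to the right and lower to the left, with the number of measured members in brackets. Dotted lines mark the shares over all genes tested (16.8% higher and 14.2% lower). Lists of neutrophils, macrophages and interferon-induced genes reach furthest to the right, and lists of mitochondrial respiration and the TCA cycle furthest to the left. The filter kept 6 of the 11 neutrophil members only through day 6. Without the filter 14 of 18 neutrophil markers rose, so the place of this list depends on the filter.

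Chemokines included the gene with the largest rise of all. Of 27 measured CXC and CC chemokines, 20 rose and 3 fell, with a median log2 change of 1.08. With the control covariate, 11 rose and 2 fell. The filter kept 5 of these 27, Cxcl2, Cxcl3 and Cxcl5 among them, only through day 6, and without it 20 of 30 rose and 3 fell. Cxcl2, a chemokine that draws neutrophils, had signals of 7.66, 21.5 and 50.6 at day 2 (lowest, median and highest of 6 arrays) and of 585, 1432 and 2942 at day 6. The lowest array of day 6 (mouse 3) thus lay more than 10 times above the highest of day 2, and the log2 change was 5.13 ± 0.32 (SE, adjusted p = 1.9e-10). Cxcl5, another ligand of the neutrophil receptor Cxcr2, went from 26.8, 57.0 and 87.4 to 484, 879 and 2857, a log2 change of 3.85 ± 0.37 (adjusted p = 1.5e-07). Cxcl1 and Cxcl3, ligands of the same receptor that were chosen after their values were seen, rose by 3.00 and 2.81 on the log2 scale. The 3 probe sets of Cxcl1 differed in size but not in direction, from 1.71 to 4.21. These 4 genes lie near each other on chromosome 5, and in the RefSeq annotation no protein-coding gene lies between Cxcl1 and Cxcl2.

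Chemokines with other targets rose too. Cxcl9 and Cxcl10, which interferon-gamma induces and which draw activated T cells, rose by 3.60 ± 0.42 and 2.56 ± 0.37. Cxcl9 had signals of 40.4 to 179 at day 2 and of 365 to 3401 at day 6, with the lowest day 6 value on mouse 29. The monocyte chemokines Ccl2, Ccl7 and Ccl8, chosen after their values were seen, rose by 2.69, 2.38 and 2.45. The 3 that fell, again chosen after their values were seen, were Ccl28 (-0.77), Cx3cl1 (-0.47) and Ccl6 (-0.37). Ccl28 is made by the colon epithelium and draws cells that make IgA. Among chemokine receptors 6 of 10 measured rose and 0 fell (2 rose with the control covariate and 4 without the 3 arrays). The largest was Ccr2, the monocyte receptor for Ccl2, at 2.29 ± 0.24.

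Cytokines of the IL-6 and IL-1 families rose in the same interval. Of 12 measured members of the IL-6 family and its receptors 10 rose and 0 fell (median 0.82; 6 rose with the control covariate). Of the 12, 4 were kept only through day 6, Il6 and Il11 among them, and without the filter the count was again 10 of 12. Il6, which drives the acute phase response through Stat3, had signals of 1.30, 19.4 and 28.7 at day 2 and of 507, 683 and 1454 at day 6. All 6 arrays of day 6 lay far above day 2, and the log2 change was 4.49 ± 0.30 (adjusted p = 9.4e-10). Il11, a relative of Il6 made by fibroblasts, rose by 3.25 ± 0.40, and Socs3, the feedback inhibitor that Stat3 switches on, by 2.94 ± 0.21. Socs3 stood at 320 to 636 at day 2 and at 2739 to 5137 at day 6. In the IL-1 family 8 of 15 rose and 1, Casp1, fell (by 0.30, chosen after its value was seen), and 5 rose and 0 fell with the control covariate. Il1b itself went from 97.2, 118 and 211 to 831, 2280 and 3529, a change of 3.81 ± 0.32, and Il33, an alarmin held in the nuclei of stromal and epithelial cells, rose by 2.58 ± 0.19. Il18bp, which binds and blocks Il18, rose by 1.56.

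Of 21 measured genes of the TNF family, NF-kappaB and its feedback, 16 rose and 0 fell (median 0.71; 7 rose with the control covariate). Of the 21, 3 were kept only through day 6, Tnf among them, and without the filter 17 of 25 rose. Tnf itself was dim. Its signals of 8.84, 45.0 and 65.1 at day 2 became 90.5, 183 and 364, a change of 2.03 ± 0.41 with an adjusted p of 0.00063. With the control covariate Tnf did not pass (adjusted p = 0.20). Tnfaip2, a gene named for its induction by TNF, rose by 2.25 ± 0.20, and Icam1, which lets leukocytes hold on to vessel walls, by 1.61 ± 0.17. Of 7 other cytokines measured 3 rose (Csf3, Il17ra and Csf1) and 1 fell (Il15), with a median of -0.16, and 0 passed with the control covariate. Csf3, the growth factor of neutrophils, was kept only through day 6 and rose by 1.57 ± 0.38 from a dim level of 13.6 to 80.2, to 106 to 323. That call was lost with the control covariate (adjusted p = 0.49).

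The 250 bases before the start of transcription can be searched for letters that NF-kappaB, AP-1 and C/EBP factors are known to recognise. They are shown for genes picked because they held such letters, and are not typical of their groups. Sequences are from RefSeq (GRCm38.p6), 5' to 3' on the strand of the gene, and coordinates are those of the 250 bases. Capitals mark, on either strand, GGG followed by 2 bases of any kind and TTTCC (NF-kappaB), TGANTCA (AP-1) or TTNNGCAA (C/EBP). None of the matches shown overlap. First come 2 neighbouring chemokines and Il6:
Cxcl2 (chr5:90903649-90903898, plus strand): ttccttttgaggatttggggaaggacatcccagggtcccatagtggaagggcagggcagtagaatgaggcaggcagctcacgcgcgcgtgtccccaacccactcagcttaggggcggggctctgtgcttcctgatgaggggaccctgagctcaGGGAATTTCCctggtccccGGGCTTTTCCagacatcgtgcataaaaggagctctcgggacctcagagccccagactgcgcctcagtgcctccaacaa
Cxcl1 (chr5:90890995-90891244, plus strand): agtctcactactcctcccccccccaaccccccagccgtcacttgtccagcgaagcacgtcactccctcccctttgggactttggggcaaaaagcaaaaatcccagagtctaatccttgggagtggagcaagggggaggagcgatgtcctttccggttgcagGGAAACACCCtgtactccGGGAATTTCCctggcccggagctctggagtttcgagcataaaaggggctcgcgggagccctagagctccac
Il6 (chr5:30012864-30013113, plus strand): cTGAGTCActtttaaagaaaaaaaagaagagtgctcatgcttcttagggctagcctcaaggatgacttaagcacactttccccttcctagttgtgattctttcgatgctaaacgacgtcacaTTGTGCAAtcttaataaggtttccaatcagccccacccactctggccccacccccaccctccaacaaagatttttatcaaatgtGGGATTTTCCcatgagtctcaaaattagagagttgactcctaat

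Cxcl2 and Cxcl1 each held the NF-kappaB letters at 2 places, beginning 97 and 78 bases before the start in Cxcl2 and 89 and 71 bases before it in Cxcl1. Il6 held them once, 44 bases before its start, together with the AP-1 letters at 249 and the C/EBP letters at 128. The NF-kappaB letters were also looked for in Il1b, Cxcl9, Acod1, Saa3, Ptx3 and Nfil3, which did not hold them. The C/EBP letters were in S100a9, Saa3 and Ptx3 and not in S100a8 or Chil3. Of the 12463 genes tested, 10024 had a promoter in the table, and 1.79% of these held the NF-kappaB letters. The share was 3.7% among 297 of the genes that rose at least 2-fold and 4.76% among 84 of those that fell at least 2-fold. For TGANTCA the shares were 6.01%, 10.8% and 7.14%, and for TTNNGCAA 9.35%, 16.2% and 13.1%. Among the 15 largest rises, 13 had a promoter in the table, of which 2 held the NF-kappaB letters, 4 the AP-1 letters and 6 the C/EBP letters. A match of letters is a description of the sequence and not a site shown to be bound.

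**Figure D2:**
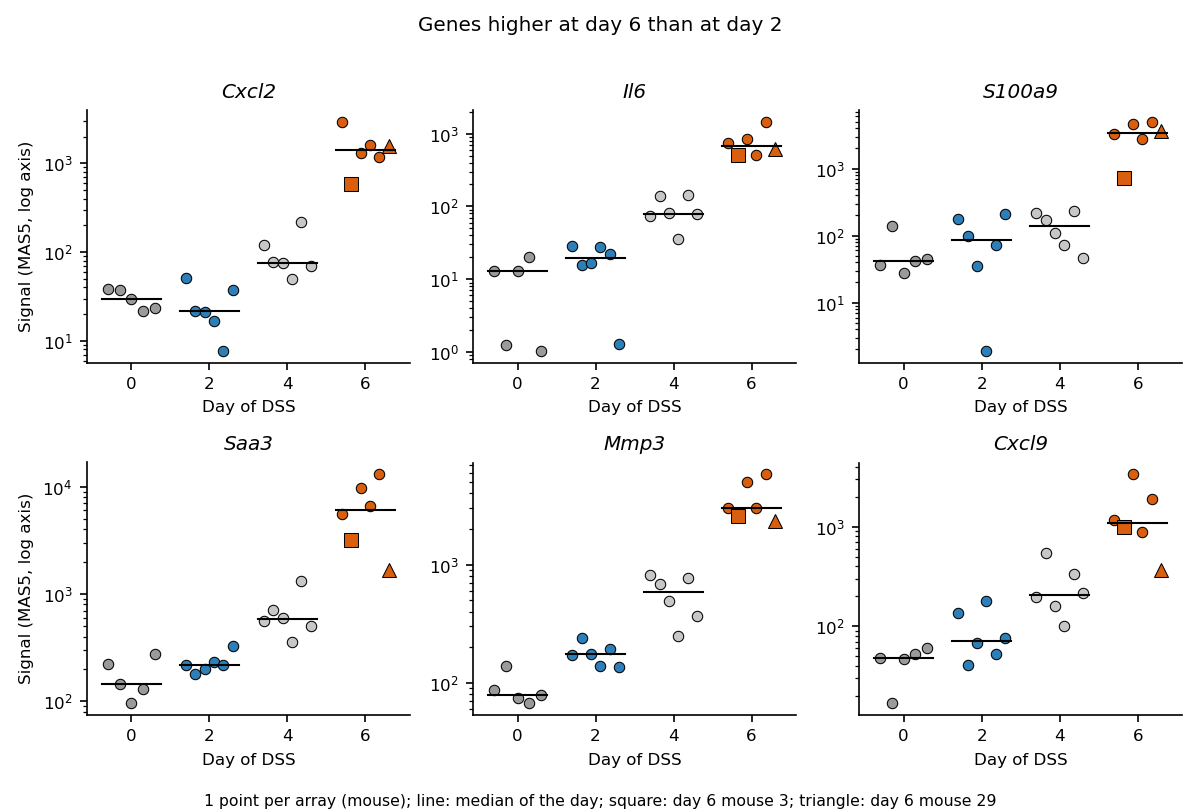
Signal on every array (log axis) of 6 genes that rose between day 2 (blue) and day 6 (orange), with days 0 and 4 in grey and a line at each day's median. In all 6 panels every day 6 array lies above every day 2 array, and day 6 mouse 3 (square) or mouse 29 (triangle) gives the lowest day 6 value.

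Markers of neutrophils and macrophages rose almost as whole lists. Of 24 markers of monocytes and macrophages on the array, all 24 were measured and all 24 rose (median 1.31), as they also did without the 3 arrays that carried neighbouring tissue unevenly. With the control covariate 18 rose. Of 18 neutrophil markers on the array, 11 were measured, 6 of them only because of their day 6 arrays, and all 11 rose. Without the filter 14 of 18 rose and 0 fell, with a median of 1.65. S100a8 and S100a9, the paired calcium-binding proteins that neutrophils hold in bulk, are neighbours on chromosome 3. S100a9 had signals of 1.89, 84.6 and 213 at day 2 and of 729, 3454 and 4996 at day 6, and S100a8 of 23.4, 198 and 479 and of 988, 4736 and 6460. For both genes day 6 mouse 3 was far below the other 5 arrays of day 6, yet above all of day 2. The log2 changes were 5.08 ± 0.53 and 4.45 ± 0.48 (adjusted p = 4.3e-07 and 6.2e-07). At day 2 S100a9 and S100a8 were lowest on mouse 8 (1.89 and 23.4) and highest on mouse 52 (213 and 479). The median of 25 squamous markers against the day 2 mean was -2.86 and 1.02 on these 2 arrays. At day 6 that median was lowest on mouse 1 (0.87), whereas both genes were lowest on mouse 3 (0.95). The part of squamous RNA in both genes was not tested. Clec4e and Clec4d, receptors of microbial and damaged-cell lipids on myeloid cells and neighbours on chromosome 6, rose by 3.44 ± 0.39 and 2.35 ± 0.32. Hdc (chosen after its values were seen), which makes histamine and which maturing myeloid cells express, rose by 3.06 ± 0.32 from signals below 10.

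Among the macrophage markers Chil3, a chitinase-like protein of recruited and activated macrophages and of neutrophils, rose by 4.42 ± 0.49. Its signals were 1.15 to 32.1 at day 2 and 86.2 to 1586 at day 6, with the lowest value on mouse 3 and the highest on mouse 4. Fcgr4, an activating receptor for antibody, rose by 2.19 ± 0.24. Acod1, which makes itaconate in activated macrophages, went from 3.49, 4.31 and 11.2 to 97.9, 243 and 620, a change of 3.57 ± 0.34. The smallest rise of the list was that of Ms4a7, at 0.59, and Adgre1, a surface receptor of macrophages, rose by 0.78 (both chosen after their values were seen).

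Markers of other blood cells gave mixed counts. Of 6 measured markers of T and NK cells 1 rose, Thy1, which fibroblasts also express (0.98). That is 16.7%, against 16.8% of all genes. Of 15 markers of B cells and plasma cells 2 rose, Cd22, a B cell receptor for sialic acid (1.45 ± 0.27), and Pou2af1 (0.89), a share below the 16.8% of all genes. With the control covariate 0 rose (adjusted p = 0.21 and 0.17). Dendritic cell markers rose in 5 of 7, led by Fscn1 (1.54), which bundles actin, and 1 rose with the control covariate. Of the 7, 3 were kept only through day 6, and without the filter 6 of 10 rose, with a median of 0.80. Of 10 mast cell markers on the array 4 were measured. Among these Kit fell, by 0.61, and 0 rose, with a median of -0.25. Kit is also a marker of the pacemaker cells of the gut wall. Without the filter 2 of the 10 rose and 1 fell, with a median of 0.47.

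Acute phase and antimicrobial genes made up a further part of the largest rises. Of 19 measured acute phase and complement genes 16 rose and 0 fell, and 9 rose with the control covariate. Saa3, an acute phase apolipoprotein made outside the liver, had signals of 181, 220 and 325 at day 2 and of 1679, 6122 and 13120 at day 6. The lowest value of day 6 was that of mouse 29 and the highest that of mouse 21, and the change was 4.49 ± 0.37 (adjusted p = 1.4e-08). Hp, which encodes haptoglobin, the binder of free haemoglobin, changed from 3.56, 55.7 and 415 to 647, 1781 and 5082. Its spread at day 2 was wide, and its change of 4.39 carried an SE of 0.61. Hp was highest at day 2 on mice 6 and 7 (415 and 243) and at day 6 on mice 21 and 7 (5082 and 3330). The median of 8 fat markers above the day 2 mean was also highest there, at 0.79, 0.55, 1.49 and 1.06. The order did not hold throughout. Day 6 mouse 29 had a higher fat median (0.44) but less Hp (974) than mouse 4 (-0.18 and 1517). The part of fat RNA in Hp was not tested. Ptx3, a pentraxin that marks microbes for uptake, rose by 3.82 ± 0.46, and Lrg1, an acute phase glycoprotein, by 2.74 ± 0.25.

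Antimicrobial genes split by direction. Of 18 measured, 11 rose and 2 fell (5 and 1 with the control covariate). Reg3g, a lectin of the epithelium that kills Gram-positive bacteria, went from 800, 2340 and 3699 to 9083, 13810 and 21480 (2.81 ± 0.45). Lcn2, which starves bacteria of siderophore-bound iron, rose by 2.52 ± 0.34, and Retnlb, a goblet cell protein that acts on bacteria, by 1.87 ± 0.43. The 2 that fell, named after their values were seen, were Reg4 (-1.98 ± 0.45), a lectin of deep crypt secretory cells, and Wfdc2 (-1.59 ± 0.27), an epithelial protein with a protease inhibitor fold. The calls of Retnlb and Reg4 were lost with the control covariate (adjusted p = 0.18 and 0.46). For Reg4 and Wfdc2 the days overlapped. Reg4 ranged from 499 to 10500 at day 6, with the highest value on mouse 7, against 4813 to 9330 at day 2. Wfdc2 ranged from 732 to 4442 at day 6, with the highest value on mouse 3, against 4085 to 7253.

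Enzymes of the extracellular matrix rose together with matrix genes. Of 23 measured metalloproteinases, related proteases and inhibitors, 18 rose and 0 fell (median 1.13; 11 rose with the control covariate). The stromelysins Mmp3 and Mmp10 and the collagenase Mmp13 led the list. Mmp3 had signals of 137, 175 and 241 at day 2 and of 2350, 3008 and 5852 at day 6, a change of 4.18 ± 0.26 (adjusted p = 1.9e-10). Mmp13 went from 75.4, 114 and 165 to 1423, 3087 and 5028 (4.42 ± 0.37) and Mmp10 from 70.3, 107 and 156 to 1039, 2181 and 4337 (4.07 ± 0.34). No array of day 6 came near day 2 in any of the 3. The inhibitor Timp1, chosen after its values were seen, rose by 2.42 ± 0.20. The 3 genes lie close together on chromosome 9, and each held the AP-1 letters within the last 63 bases before its start, which is why their upstream bases are shown with the same marks as above:
Mmp3 (chr9:7445572-7445821, plus strand): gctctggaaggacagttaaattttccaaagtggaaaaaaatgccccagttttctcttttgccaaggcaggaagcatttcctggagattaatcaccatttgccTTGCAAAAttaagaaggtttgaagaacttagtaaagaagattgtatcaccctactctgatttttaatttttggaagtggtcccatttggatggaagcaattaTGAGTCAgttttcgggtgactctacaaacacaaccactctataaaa
Mmp10 (chr9:7502092-7502341, plus strand): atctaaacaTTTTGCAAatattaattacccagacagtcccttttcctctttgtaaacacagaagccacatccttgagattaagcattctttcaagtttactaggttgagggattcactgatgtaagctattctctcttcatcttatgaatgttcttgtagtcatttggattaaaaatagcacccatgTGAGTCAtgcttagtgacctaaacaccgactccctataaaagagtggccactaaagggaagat
Mmp13 (chr9:7272264-7272513, plus strand): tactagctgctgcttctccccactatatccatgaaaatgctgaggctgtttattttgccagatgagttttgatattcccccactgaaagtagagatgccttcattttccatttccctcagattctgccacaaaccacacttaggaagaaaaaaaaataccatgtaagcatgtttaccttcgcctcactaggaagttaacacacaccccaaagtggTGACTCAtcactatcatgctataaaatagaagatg

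The AP-1 letters began 46 bases before the start in Mmp3, 63 in Mmp10 and 35 in Mmp13, against a share of 6.01% of all promoters that held them anywhere in the window. Mmp3 and Mmp10 also held the C/EBP letters, at 148 and 241 bases.

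Of 32 collagens, proteoglycans and matricellular proteins, 26 rose and 1, Sparcl1, fell (-0.26, chosen after its value was seen). That call was lost without any 1 of 8 arrays, day 2 mice 1, 6, 7, 8 and 17 and day 6 mice 1, 4 and 7 (adjusted p of 0.057 to 0.14). With the control covariate 16 rose and 0 fell. Of 23 markers of fibroblasts and matrix, 21 rose (median 0.70; 14 with the control covariate). Cemip, which starts the breakdown of hyaluronan, went from 15.7, 51.0 and 80.6 to 304, 874 and 1344 (3.55 ± 0.34). Lox, which crosslinks collagen, rose by 1.73 ± 0.24 and Pdpn, a surface protein of fibroblasts and lymphatic vessels, by 1.43 ± 0.13. The fibrillar collagen genes Col1a1 and Col3a1, chosen after their values were seen, rose by 0.92 and 0.57.

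Vessel markers and adhesion molecules rose as well. Of 18 leukocyte adhesion genes 14 rose and 1, F11r, fell (-0.17, chosen after its value was seen). That call was lost without any 1 of 8 arrays, day 2 mice 1, 6, 7 and 17 and day 6 mice 3, 4, 7 and 21 (adjusted p of 0.054 to 0.14), and with the control covariate 8 rose and 0 fell. Selp, the selectin on which leukocytes first roll, went from 57.7, 138 and 244 to 490, 704 and 1446 (2.37 ± 0.28), and Itgb2, the shared chain of the leukocyte integrins, rose by 1.66. Itgb7, an integrin chain of gut-homing lymphocytes, rose by 2.19 ± 0.30 from signals of 11.5 to 60.9. Its day 0 signals were 54.4 to 113, and 5 of the 6 arrays of day 2 lay below them. Of 21 endothelial markers 12 rose and 0 fell (2 with the control covariate). Beside Selp the largest was 0.77, for the apelin receptor Aplnr.

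Interferon-induced genes rose in 24 of 26 measured, with 0 falling and a median of 1.46 (12 rose with the control covariate). The day 6 arrays spread widely in this list, from a median log2 level of 0.67 above the day 2 mean on mouse 29 to 2.47 on mouse 4. Gbp6, a GTPase that attacks vacuoles holding pathogens, had signals of 104, 173 and 313 at day 2 and of 578, 1364 and 2973 at day 6 (2.71 ± 0.32). Of 18 genes of MHC class I and II presentation 13 rose and 0 fell (median 0.57; 7 rose with the control covariate). Nlrc5, which switches on MHC class I genes, rose by 1.86 ± 0.21, the peptide transporter Tap1 by 1.67 ± 0.21, and its neighbour Psmb9, a subunit of the immunoproteasome, by 1.26 ± 0.18. Signals of Tap1 were 248 to 534 at day 2 and 832 to 2191 at day 6.

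In the prostaglandin and leukotriene pathway 5 of 19 measured genes rose and 1 fell (3 and 1 with the control covariate). In total 31.6% passed, near the 31% of all genes. Ptgs2, the inducible cyclooxygenase, went from 192, 276 and 548 to 762, 1078 and 2357 (2.06 ± 0.32), and Alox5ap, which presents arachidonate to the lipoxygenase, rose by 1.52 ± 0.18. The gene that fell, Hpgd, breaks prostaglandins down. It changed from 7338, 7934 and 8647 to 3498, 4422 and 5277, a log2 change of -0.86 ± 0.10 (adjusted p = 1.5e-06, chosen after its values were seen). All 6 arrays of day 6 lay below all of day 2.

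The largest fall was that of Mptx1, a mucosal pentraxin of the gut epithelium. Its signals were 11180, 14740 and 17910 at day 2 and 198, 863 and 10860 at day 6. On 4 arrays of day 6 it stood below 1000, while mouse 29 had 4937 and mouse 3 had 10860, close to the lowest of day 2. The log2 change was -3.44 ± 0.57 (adjusted p = 7.6e-05). Cyp2c68, a cytochrome P450 with near-identical relatives that its probes may also bind, went from 2809, 4166 and 4499 to 351, 596 and 1671 (-2.50 ± 0.30). Rasd2, a Ras-like GTPase, fell by 2.36 ± 0.33 and Ttr, the carrier of thyroid hormone, by 2.11 ± 0.28 on the log2 scale. The sugar-transfer enzymes Fut9 and St3gal6, which cap the glycans of cell surfaces, changed by -2.06 ± 0.30 and -1.52 ± 0.19. Slc6a4, the serotonin transporter that ends serotonin signalling in the gut, had signals of 322, 463 and 607 at day 2 and of 60.3, 106 and 299 at day 6 (-1.75 ± 0.26).

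**Figure D3:**
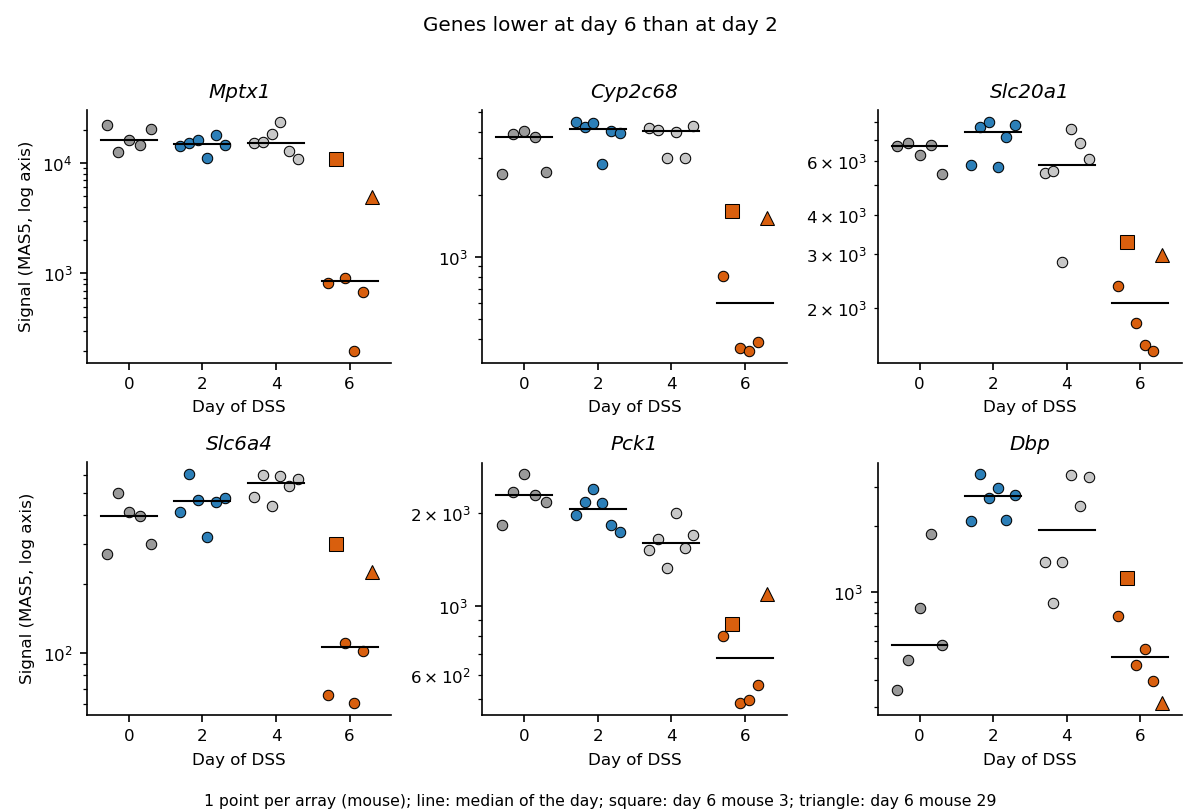
Signal on every array (log axis) of 6 genes that fell between day 2 (blue) and day 6 (orange), with days 0 and 4 in grey and a line at each day's median. Every day 6 array lies below every day 2 array in each panel, and day 6 mouse 3 (square) is the highest day 6 array in 5 panels and mouse 29 (triangle) in that of Pck1.

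Markers of epithelial cells fell by smaller amounts. Of 18 genes expressed across the epithelium 13 fell and 0 rose, but the median change was only -0.23. Quantile normalization left 8 that fell and the control covariate 0. The keratin Krt18 went from 11400, 12330 and 12690 to 6206, 8526 and 9984 (-0.58 ± 0.09) and Grhl2, a factor that keeps epithelial identity, changed by -0.56 ± 0.10. Of 26 markers of absorptive colonocytes 12 fell and 0 rose (median -0.28; 6 with the control covariate). The phosphate transporter Slc20a1 went from 5705, 7433 and 8008 to 1451, 2072 and 3273, without overlap (-1.71 ± 0.20, adjusted p = 1.9e-06). Slc37a2, a sugar phosphate exchanger, fell by 1.64 ± 0.31 and Slc26a3, the chloride and bicarbonate exchanger of the colon surface, by 0.90 ± 0.18. Car1 and Car4, carbonic anhydrases of the same cells that were chosen after their values were seen, had changes of -0.05 ± 0.05 and -0.18 ± 0.26 that did not pass.

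Goblet cell genes moved both ways. Of 24 measured, 12 fell and 2 rose (9 and 1 with the control covariate). Clca4b, of a family of secreted regulators of chloride channels with close relatives, went from 324, 485 and 511 to 1189, 5790 and 11350 (3.29 ± 0.46), and Retnlb rose as given above. Best2, the bestrophin channel of colon goblet cells, fell by 1.55 ± 0.27. Atoh1, the factor that commits cells to the secretory fate, changed from 2674 to 4057 at day 2 to 1067 to 2180 at day 6, without overlap (-1.13 ± 0.17, chosen after its values were seen). Muc2, the main mucin, did not pass, at -0.06 ± 0.04 (chosen after its values were seen). Of 9 tuft cell markers 5 fell and Alox5ap, which macrophages also express, rose (2 and 1 with the control covariate). The channel Trpm5 fell by 0.69 ± 0.24, a call lost without day 2 mouse 8, 17 or 52 or day 6 mouse 4 or 21 (adjusted p of 0.06 to 0.092). Of 16 enteroendocrine markers 4 fell (Insl5, Pcsk1, Gcg and Chgb) and 0 rose, while 7 fell without the 3 arrays and 1 with the control covariate. The 4 are 25% of the list, whereas over all genes 31% passed and 14.2% fell. The largest fall was that of Insl5, a hormone of colonic L cells (-0.65 ± 0.15).

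Calls among genes of transport, junctions and detoxification were mostly falls. Of 29 genes of water and ion transport 17 fell and 1 rose (median -0.47; 11 fell and 0 rose with the control covariate). Trpm6, a channel for magnesium, went from 1147, 1597 and 1873 to 342, 651 and 1246 (-1.23 ± 0.23). The sodium channel subunit Scnn1a, chosen after its values were seen, fell by 0.72. Aqp3, an aquaporin of the basal membrane that squamous epithelium also expresses, was the 1 that rose, at 1.38 ± 0.45. Its adjusted p was 0.023, against 0.066 where day 2 mouse 8 was left out and 0.068 where day 6 mouse 29 was, and its signal was 24.5 on day 2 mouse 8, the array low in squamous RNA. Of 28 junction genes 10 fell, 0 rose and 18 did not pass, with 6 falls after quantile normalization and 2 with the control covariate. The 10 are 35.7% of the list, whereas over all genes 31% passed and 14.2% fell. Ocln, which encodes occludin of the tight junction, went from 2491, 2783 and 3159 to 1393, 1938 and 2457 (-0.57 ± 0.10).

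Of 39 cytochrome P450 and conjugating enzymes 22 fell and 0 rose (median -0.49), while 4 fell with the control covariate. Sult1a1, which adds sulfate to phenols, went from 7071, 8258 and 11520 to 2865, 4394 and 5893 (-1.05 ± 0.15), and Gstm3, a glutathione transferase, from 2516, 3012 and 3743 to 1190, 1426 and 2054 (adjusted p = 1.4e-05). Members of these families resemble each other, so probe sets may bind more than 1 of them. Pck1, the first committed enzyme of gluconeogenesis, changed from 1741, 2065 and 2395 to 486, 678 and 1094, without overlap (-1.55 ± 0.16, adjusted p = 2.7e-07).

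Genes of mitochondrial respiration fell by small amounts. Of 34 genes of mitochondrial respiration 27 fell and 0 rose, with a median change of -0.18 and none beyond -0.38. Quantile normalization left 15 and the control covariate 2. Of 19 TCA cycle genes 15 fell (2 with the control covariate), led by Suclg1, a subunit of succinyl-CoA ligase, which went from 9233, 9486 and 9948 to 5528, 6342 and 7159 (-0.58 ± 0.05, adjusted p = 7.7e-08). Of 28 genes of fatty acid oxidation and ketogenesis 21 fell and 1, Acsl5, rose (0.25, chosen after its value was seen; 5 fell and 0 rose with the control covariate). Ppargc1a, the coactivator that drives mitochondrial gene expression, went from 433, 850 and 938 to 77.8, 225 and 517 (-1.71 ± 0.28), and its partner Ppara fell by 0.70 ± 0.18. The 5 probe sets of Ppargc1a gave changes from -1.71 to -1.10. Of 24 metabolic nuclear receptors and transcription factors 12 fell and 2 rose (4 and 2 with the control covariate). The 2 that rose were Cebpd and Cebpb, factors of the acute phase response, at 1.67 ± 0.20 and 1.51 ± 0.17. Glycolysis and hypoxia genes gave 7 rises and 2 falls among 25 (3 and 0 with the control covariate), led by Pfkfb3, which makes the activator of glycolysis (1.58 ± 0.20). Of these 36% passed, against 31% of all genes.

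Clock genes changed in both directions. Of 18 measured, 10 fell and 3 rose (4 and 1 with the control covariate, 8 and 1 without the 3 arrays). Dbp, a factor whose level follows the time of day, went from 2112, 2722 and 3437 at day 2 to 313, 509 and 1154 at day 6 (-2.22 ± 0.36). At day 0 its signals were 360 to 1841 and at day 4 they were 890 to 3384, and the day 0 median of 574 lay nearer to the median of day 6 than to that of day 2. Ciart, a repressor of the clock, fell by 1.38 ± 0.38. Nfil3, which binds the same sites as Dbp and represses them, and which inflammation also induces, went from 57.8, 86.0 and 127 to 340, 888 and 1659 (3.10 ± 0.35). Per2, Per3 and Nr1d1 fell by 1.18, 1.03 and 1.07, and Arntl and Rora, which act on the positive side of the clock, had called changes of 0.44 each (these 5 were chosen after their values were seen). The 6 probe sets of Rora disagreed, from -0.23 to 0.62, as did the 2 of Arntl, from -0.05 to 0.44, and with the mean of probe sets neither passed (adjusted p = 0.14 and 0.31). The call of Arntl was lost without any 1 of 9 arrays, day 2 mice 1, 6, 7 and 8 and day 6 mice 1, 4, 7, 21 and 29 (adjusted p of 0.05 to 0.12). The hour of tissue collection is not given in the sources used here, so a difference of hour between the cohorts cannot be told apart from the day of treatment. The clock proteins bind the letters CACGTG, and the upstream bases of Ciart, which held them 3 times, are shown with those letters in capitals:
Ciart (chr3:95882229-95882478, minus strand): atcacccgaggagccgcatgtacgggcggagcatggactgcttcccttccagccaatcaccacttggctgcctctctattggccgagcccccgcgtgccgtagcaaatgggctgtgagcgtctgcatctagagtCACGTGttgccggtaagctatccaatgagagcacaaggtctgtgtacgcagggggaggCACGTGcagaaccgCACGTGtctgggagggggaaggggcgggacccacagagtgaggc

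In Ciart the letters began 116, 58 and 44 bases before the start. They were in 9.82% of all promoters and in 10.7% of the 84 promoters of genes that fell at least 2-fold, and the windows of Dbp and Nfil3 did not hold them.

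Genes of cell division rose. Of 40 measured 24 rose and 1, Ccnd2, fell (-0.53, chosen after its value was seen), with a median of 0.53, and 4 rose with the control covariate. Rrm2, which makes DNA precursors, went from 316, 496 and 681 to 842, 1278 and 1477 (1.34 ± 0.20). The kinases Bub1 and Plk1 of the mitotic checkpoint and of mitosis rose by 1.08 ± 0.22 and 0.95 ± 0.22. At day 0 the median of this list was 0.46 above the day 2 mean, with a range of -0.07 to 0.75 over its 5 arrays, against 0.42 to 0.60 at day 6. Markers of stem and crypt base cells gave 4 rises (Cd44, Myc, Smoc2 and Bmi1) and 1 fall (Znrf3) among 17 (2 and 0 with the control covariate). In total 29.4% of them passed, near the 31% of all genes. Cd44 and Myc, also targets of Wnt signalling, rose by 0.80 ± 0.13 and 0.75 ± 0.15, while Lgr5 and Axin2, chosen after their values were seen, had changes of -0.16 ± 0.18 and 0.15 ± 0.14 that did not pass. Mean signals of Myc at days 0, 2 and 6 were 938, 567 and 957, and those of Cd44 were 2950, 2825 and 4957. Lgr5 stood at 251, 141 and 122 and Axin2 at 770, 374 and 414, so both were already lower at day 2 than at day 0.

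Growth factor genes showed a few large changes. Of 20 genes of EGF receptor ligands and receptors 4 rose (Ereg, Egfr, Nrg1 and Dusp6) and 2 fell (Egf and Erbb3), against 2 and 0 with the control covariate. In total 30% of this list passed, near the 31% of all genes. Epiregulin (Ereg), a ligand of the EGF receptor whose gene has 2 protein-coding genes between it and Cxcl2, went from 488, 709 and 1267 to 1908, 3882 and 7860 (2.29 ± 0.32), and the receptor Egfr rose by 0.92 ± 0.11. The 4 probe sets of Egfr disagreed, from -0.06 to 0.92. Among BMP, hedgehog and TGF-beta genes 8 of 27 rose and 5 fell (4 and 2 with the control covariate). Inhba, a subunit of activin, rose by 1.69 ± 0.24, whereas Indian hedgehog (Ihh), the signal from differentiated colonocytes to the stroma, went from 1493, 1693 and 2252 to 514, 739 and 1152 (-1.23 ± 0.17). In the Wnt and R-spondin list 5 of 19 rose and 2 fell (Fzd2 and Fzd5), against 2 and 1 with the control covariate. Here 36.8% passed, against 31% of all genes. Sfrp1, a secreted Wnt inhibitor, rose by 1.30 ± 0.14 and Rspo3, the stromal factor that sustains crypt stem cells, by 1.20 ± 0.16.

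Stress responses other than inflammation differed in their counts. Of 24 genes of the unfolded protein and amino acid response 2 rose (Psat1 and Slc3a2) and 2 fell (Ern2 and Herpud1). Of 16 heat shock genes 1 rose, Hspb8 (0.41 ± 0.14), a call lost without day 2 mouse 8 or day 6 mouse 21 or 29 (adjusted p = 0.082, 0.084 and 0.057). In total 16.7% and 6.25% of these lists passed, below the 31% of all genes. With the control covariate these lists gave 0 rises and 2 falls, and 0 of either. Of 20 genes of oxidative stress defence 8 rose and 4 fell (Nqo1, Nfe2l2, Cat and Txn1), a larger share than in all genes, and 5 and 0 with the control covariate. Hmox1, which degrades haem, rose by 1.28 ± 0.24. Among cells of the gut wall, 7 of 18 genes of smooth muscle and interstitial cells fell and 1 rose, led by Ano1, the channel of interstitial cells of Cajal (-0.77 ± 0.22). Without the 3 arrays named above 1 fell, and after quantile normalization 3. Of 19 genes of enteric neurons and glia 7 rose (5 with the control covariate), with Gfap, the filament of reactive glia, at 0.85 ± 0.16.

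Tissue next to the colon moved with the days in part. Of 25 measured markers of squamous epithelium 5 rose (Krt6a, Krt5, Krt6b, Krt14 and Krt16), with a median of 1.46. The 5 are 20% of the list, near the 16.8% of all genes that rose. Without the 3 arrays 0 rose, with a median of 1.20. All 5 calls were also lost without day 2 mouse 8 alone, with adjusted p of 0.064 for Krt6a, 0.12 for Krt5, 0.086 for Krt6b, 0.071 for Krt14 and 0.075 for Krt16, and without day 6 mouse 29 alone, with 0.068, 0.083, 0.075, 0.056 and 0.069. The summed signal of the list was 7276 to 38696 at day 2 and 37691 to 75961 at day 6. Krt6a, a keratin of injured skin and anal lining, had 1.99 on day 2 mouse 8, up to 1226 on the others of day 2, and 1439 to 6056 at day 6. Of 17 skeletal muscle markers 0 passed, with summed signals of 3231 to 89049 at day 2 and 5206 to 115079 at day 6. Of 4 pancreatic markers 1 fell, Cela1 (-1.20). Without the 3 arrays 2 fell, since Clps then passed at -1.14 (adjusted p = 2.1e-05), as it did without day 6 mouse 1 alone (-1.95, adjusted p = 0.0098). Of 8 fat markers 1 fell, Pck1, which epithelium also expresses, and 0 rose. That is 12.5%, near the 14.2% of all genes that fell. The median change of the fat markers was 0.43, with summed signals of 6332 to 13597 at day 2 and 6379 to 18021 at day 6. Red blood cell markers did not reach the filter. The part of squamous RNA in genes that squamous and colon epithelium share was not tested.

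**Figure D4:**
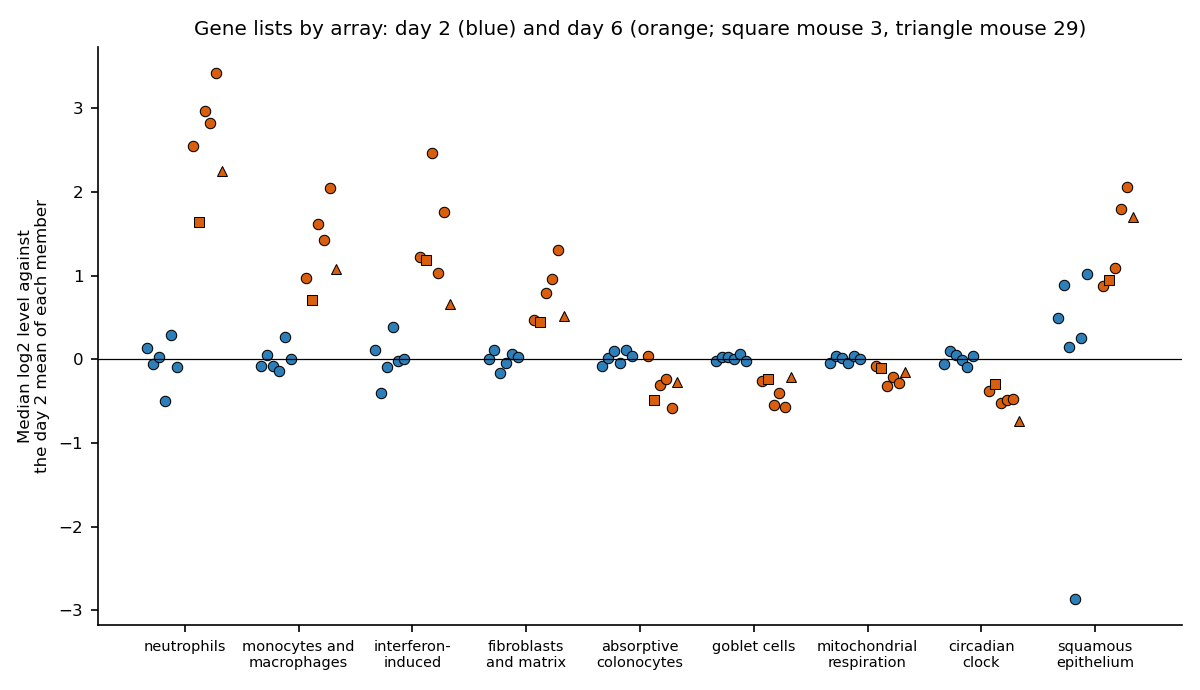
Median over each list's measured members of the log2 level on 1 array minus that member's day 2 mean, for the arrays of day 2 (blue) and day 6 (orange). The day 6 arrays of the neutrophil list run from 1.64 (mouse 3) to 3.42 (mouse 21), and the squamous list is 2.86 below the day 2 mean on day 2 mouse 8. Of the 11 neutrophil members 6 were kept only through day 6, which favours high values at day 6.

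The animals of day 6 differed in extent. Over the 15 largest rises, mouse 3 had the lowest day 6 signal for 10 genes and mouse 29 for 5, while mouse 21 had the highest for 7. Over the 15 largest falls, mouse 3 had the highest day 6 signal for 14 genes and mouse 21 the lowest for 6. The median of the neutrophil list above the day 2 mean was 1.64 on mouse 3, 2.25 on mouse 29, 2.55 on mouse 1, 2.82 on mouse 7, 2.97 on mouse 4 and 3.42 on mouse 21. Of its 11 members 6 were kept only through day 6, which favours high values here. Its median log2 change was 2.52 with the filter and 1.65 without it. The macrophage list gave the same lowest and highest animals, at 0.72 and 2.05. Mouse 3 was not nearest to day 2 in every list. Its absorptive colonocyte list was at -0.49, below 4 of the other day 6 arrays, of which mouse 1 was highest at 0.04. In the neutrophil list the day 2 arrays lay between -0.50 and 0.29, a spread that the pseudocount narrows for dim genes. In the cell cycle list the day 2 arrays spread more widely, from -0.33 to 0.32, than those of day 6, from 0.42 to 0.60.

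The difference between day 4 and day 0 shares no array with that between day 6 and day 2, so the sets of genes can be laid side by side as a description. The 2 differences do share a shift of the hybridization controls. Their mean log2 level was 11.55 to 11.68 on the arrays of day 0 and 11.06 to 11.36 on those of day 4. The part of this shift in the shares below was not tested. Over all genes tested 64.1% had the same sign in both differences, with a Pearson correlation of 0.445 over genes, which are not independent of each other. Of the 403 genes that rose at least 2-fold from day 2 to day 6, 367 (91.1%) were higher at day 4 than at day 0, with a median of 0.54 there, against 60.1% of all genes. Of the 107 that fell at least 2-fold, 66 (61.7%) were lower at day 4 than at day 0, and their median was -0.10. Hp was the 1 gene of the 15 largest rises that was lower at day 4, at 5.09 to 110, than at day 0, at 66.3 to 259. Mptx1 was still at 10920 to 23610 at day 4, and Cyp2c68 at 2992 to 4311, both far above their day 6 medians. Clic6, a chloride channel protein that fell by 1.66 to day 6, stood at 1974 to 2600. Il6 by contrast was 35.6 to 142 at day 4, above all of day 2 and below all of day 6, and so was Mmp3 at 247 to 825.

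**Figure D5:**
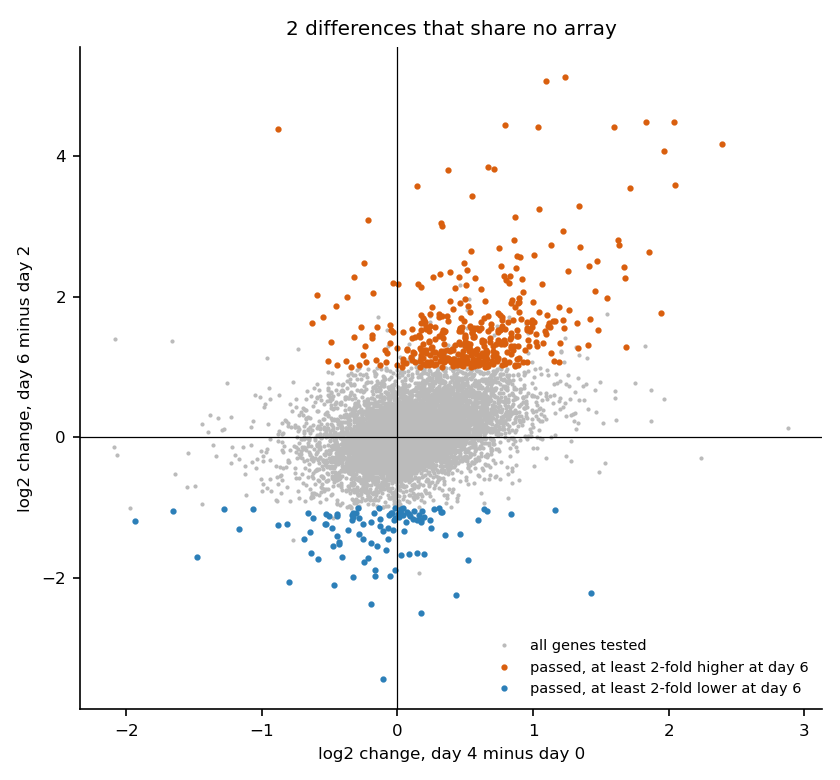
Log2 change of each gene tested from day 0 to day 4 (horizontal) against that from day 2 to day 6 (vertical), which share no array. The 403 genes that rose at least 2-fold (orange) lie mostly to the right of 0 (367 of them), and the 107 that fell at least 2-fold (blue) lie on both sides.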

How the data were processed

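Total RNA of colon was hybridised to 23 Affymetrix mouse genome arrays, 1 per mouse. The values are array intensities as the authors deposited them in the series matrix, on a linear scale and made with MAS5 per the submitters' processing notes. Each array had a trimmed mean of 500 (2% cut from either tail), and array medians were 97.3 to 121. Precision is limited by how many arrays there are. Of 45101 probe sets, 34945 carried 1 gene symbol, 932 several and 9160 none, from the platform annotation, which can be old. Probe sets above their array's median on at least 5 arrays were kept (24627), and each gene was represented by its kept probe set of highest mean, giving 12463 genes. The test was limma 3.58.1 in R 4.3.3 (lmFit, eBayes with a trend) on log2(signal + 16) over all 23 arrays, contrast day 6 minus day 2, with Benjamini-Hochberg adjustment and a threshold of 0.05. The code was tested on simulated data. Log2 levels of controls were compared by exact two-sided permutation tests.

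Genes were named by rule: the 15 largest rises and 15 largest falls without overlap among genes that passed, and the up to 3 largest changes that passed in each gene list, or the 2 lowest p where none passed (some of these are left out). Of 141 genes given with values, 40 fall outside the rule and were chosen after their values were seen. The members and lists were chosen with earlier results of these data known. List counts under other settings, the count without 3 arrays among them, were added after seeing the data. Upstream sequences are RefSeq's (GRCm38.p6), 250 bases before each start site. Alternatives were other normalizations, pseudocounts, filters, probe set rules, sample sets, weights, a replicate block, the control covariate and leaving out each array. Separate mice are the replicates, and the p-values measure their spread.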

Additional observations from a re-analysis of the deposited data

Results flagged for a closer look

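Among 282 groups of 6 arrays (141 named genes on 2 days), 29 held an array far from the other 5 of its day. Chance alone marks about 1 in 20 groups, but the number is no test against it. Prss2, Clps and Krt10, which give 4 of the 29, were picked to show such arrays, and several genes mark the same array. No explanation was tested.

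Day 2 mouse 8 stood low for genes of squamous epithelium. Krt10 was at 305.8 against 3301 to 7102 on the others, Krt6a at 1.991 against 635.6 to 1226, Krt5 at 5.063 against 702.3 to 1404 and Krt14 at 68.45 against 889.3 to 1971. The aquaporin Aqp3 was at 24.53 there against 143.9 to 325.3. The same array was also low for Csf3 (13.58), Cyp2c68 (2809), St3gal6 (2624), Rora (408.9) and Hspb8 (751.8).

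Pancreatic genes stood high on day 2 mouse 6, with Prss2 at 28000, Clps at 25970 and the elastase Cela1 at 29330, against at most 335.2, 1150 and 10460 on the other arrays of the day. Clps was also high on day 6 mouse 1, at 4606 against at most 563.3. On day 2 mouse 6 the pentraxin Ptx3 was low, at 4.435 against 26.36 to 45.27.

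Day 6 mouse 3 stood low for neutrophil genes, with S100a8 at 988.5 against 3362 to 6460, S100a9 at 729.3 against 2811 to 4996 and Hdc at 55.27 against 151.2 to 217.5. Day 6 mouse 29 stood apart in 2 clock genes, low for Ciart (22.62 against 113.7 to 221.6) and high for Arntl (1057 against 640.4 to 727.5), and was high for Fscn1 (2322) and Aqp3 (1343). Day 6 mouse 21 was high for Rora, at 1139 against 649.3 to 724.5. Day 2 mouse 7 was low for Icam1 (197.3), Hmox1 (111.7) and Col3a1 (11580) and high for Acod1 (11.25) and Itgb7 (60.91). Day 2 mouse 52 was low for Il6, at 1.297 against 15.64 to 28.7.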

How the results depend on the processing

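With the level of the hybridization controls as a covariate, 663 genes were higher and 622 lower, and 98 of the genes named by rule passed in place of 151. Of the 141 genes given with values, 36 lost their call there. Among them were Tnf, Hmox1, Gstm3, Sult1a1, Ciart, Per2, Per3, Col1a1, Krt18, Grhl2, Plk1, Gfap, Ppara and Cela1. With the replicate number as a block, which only mice 1 and 7 share between the days, 853 were higher and 698 lower. The cause was not tested. Each day is a separate cohort, so the numbers were not used as pairs. The correlations over genes of the deviations of same-numbered mice were -0.05 and -0.08. Each rests on a single pair of arrays and on genes that are not independent, so they cannot settle whether such samples share anything. Median centring gave 1426 higher and 2369 lower. In the other settings the counts stayed within 1.5 times those reported, and leaving out each array in turn gave 1792 to 2178 genes higher, 1468 to 1806 lower and 143 to 151 of the named genes. For the 141 genes given with values, 3323 of 3507 values under alternatives kept direction and side of the threshold, 171 lost the call, 5 gained it and 8 turned sign, all 8 in genes that did not pass. These were Muc2 (0.0108) and Car1 (0.0604) after quantile normalization, Car1 (0.0283) and Prss2 (0.33) with the control covariate, Prss2 (0.41), Car4 (0.42) and Lgr5 (0.000406) with the replicate block, and Prss2 without day 2 mouse 6 (0.56). Leaving out each array in turn put the change of Prss2 between -1.69 and 0.56. Dim genes, with signals near the pseudocount of 16, have less certain fold changes.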
